A study of Mus musculus with 28 samples.

Results

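The 53 genes described here encode the machinery that copies DNA in S phase and the factors that commit a cell to it. They were taken by symbol from a list of replication and S phase genes, and all 53 were found, each in 1 row, among the 25124 genes of the deposited expression table. RNA came from mouse CD4+ T cells of the small intestinal lamina propria, sorted as live CD45+ CD90.2+ TCRb+ CD4+ cells. All mice carried the T-bet-ZsGreen genotype, a green fluorescent reporter of T-bet, the transcription factor of type 1 helper T cells. There were 4 groups: specific-pathogen-free (SPF) mice given an isotype control antibody (6 libraries), SPF mice given aCD3, an antibody against the CD3 chains of the T cell receptor complex (6 libraries), germ-free (GF) mice given isotype (10 libraries), and GF mice given aCD3 (6 libraries). The comparisons ask how aCD3 changed these transcripts in mice with and without a gut flora. Age, antibody dose and the time from injection to sampling are not given in the sources used here, and nothing in the labels says which libraries came from separate animals, so p-values measure the spread between these libraries.

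Replication starts with licensing. The origin recognition complex, Cdc6 and Cdt1 load the ring-shaped MCM helicase onto DNA in G1, and at the G1/S transition Cdc45 and the GINS complex turn it into a working helicase. Polymerases, the sliding clamp PCNA and its loader RFC, and enzymes that join Okazaki fragments then copy the strands, while ribonucleotide reductase and thymidylate synthase supply the building blocks. Transcription of many of these genes is driven by E2F factors, which are held back by the retinoblastoma protein in resting cells. Many CD4+ T cells of the lamina propria are memory cells that are mostly out of cycle, and signalling through the T cell receptor is a classical trigger for cycle entry.

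Values are TPM, a gene's share of a library's transcripts after scaling for gene length, on a scale common to all libraries. Gene length in the table is the genomic span with introns, so levels are compared here between libraries and not between genes. Reads recovered from the table ranged from 6765529 to 17860609 per library in genes, and the members took 0.121% to 0.394% of the summed TPM. All 7 T cell markers were found, with a summed level of 1350 to 1757 TPM over the 28 libraries. Genes named as histones took 4.05% to 9.54% of TPM in the isotype libraries of both housing groups and 24.1% to 27.1% in SPF aCD3. Other transcripts' TPM is lowered by that share, and the median log2 fold change of all 12182 genes tested in SPF mice was -0.35. A median-of-ratios scaling, which sets that median to -0.01, is given beside the counts it changes and beside named genes whose call it changes.

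The 6 GF aCD3 libraries did not look alike. In male libraries M1, M2 and M5 histones took 23.4% to 26.3% of TPM and Lag3, an inhibitory receptor induced on activated T cells, was at 452 to 527 TPM. In female library F1 and male libraries M3 and M4 histones took 5.67% to 7.79% and Lag3 was at 9.59 to 17.0 TPM, within the range of 5.41 to 18.5 TPM of the GF isotype libraries. The label of all 6 is aCD3, and the group is treated as 6 libraries throughout. The labels do not settle whether F1, M3 and M4 came from mice that received aCD3 as labelled, or at the same time as the others. Counts and fold changes of the GF aCD3 group average over these unlike libraries, and the medians over members are also given without the 3. Sample numbers in the column names also fell into runs: 1 to 12 for SPF, and 25 to 33 and 48 to 54 for GF, so housing and run cannot be told apart.

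aCD3 raised nearly the whole set in SPF mice. Of the 53 members, 50 rose and none fell (limma on log2(TPM + 1), Benjamini-Hochberg adjusted p under 0.05), while 14.2% of all genes tested rose and 50.7% fell. After median-of-ratios scaling all 53 rose, and 30.2% of all genes did. The median log2 fold change of the members was 1.38. In 45 members every aCD3 library lay above every isotype library, which held for 8.57% of all genes. The 8 members whose groups overlapped were Orc1, Orc6, Gins3, Gins4, Cdc7, Prim2, Pold2 and Ccne2. The summed TPM of the members ran from 876 to 1073 in SPF isotype (median 942) and from 1914 to 2903 in SPF aCD3 (median 2450). In bulk RNA of this kind, more cells in S phase and more RNA per cell cannot be told apart.

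**Figure D1:**
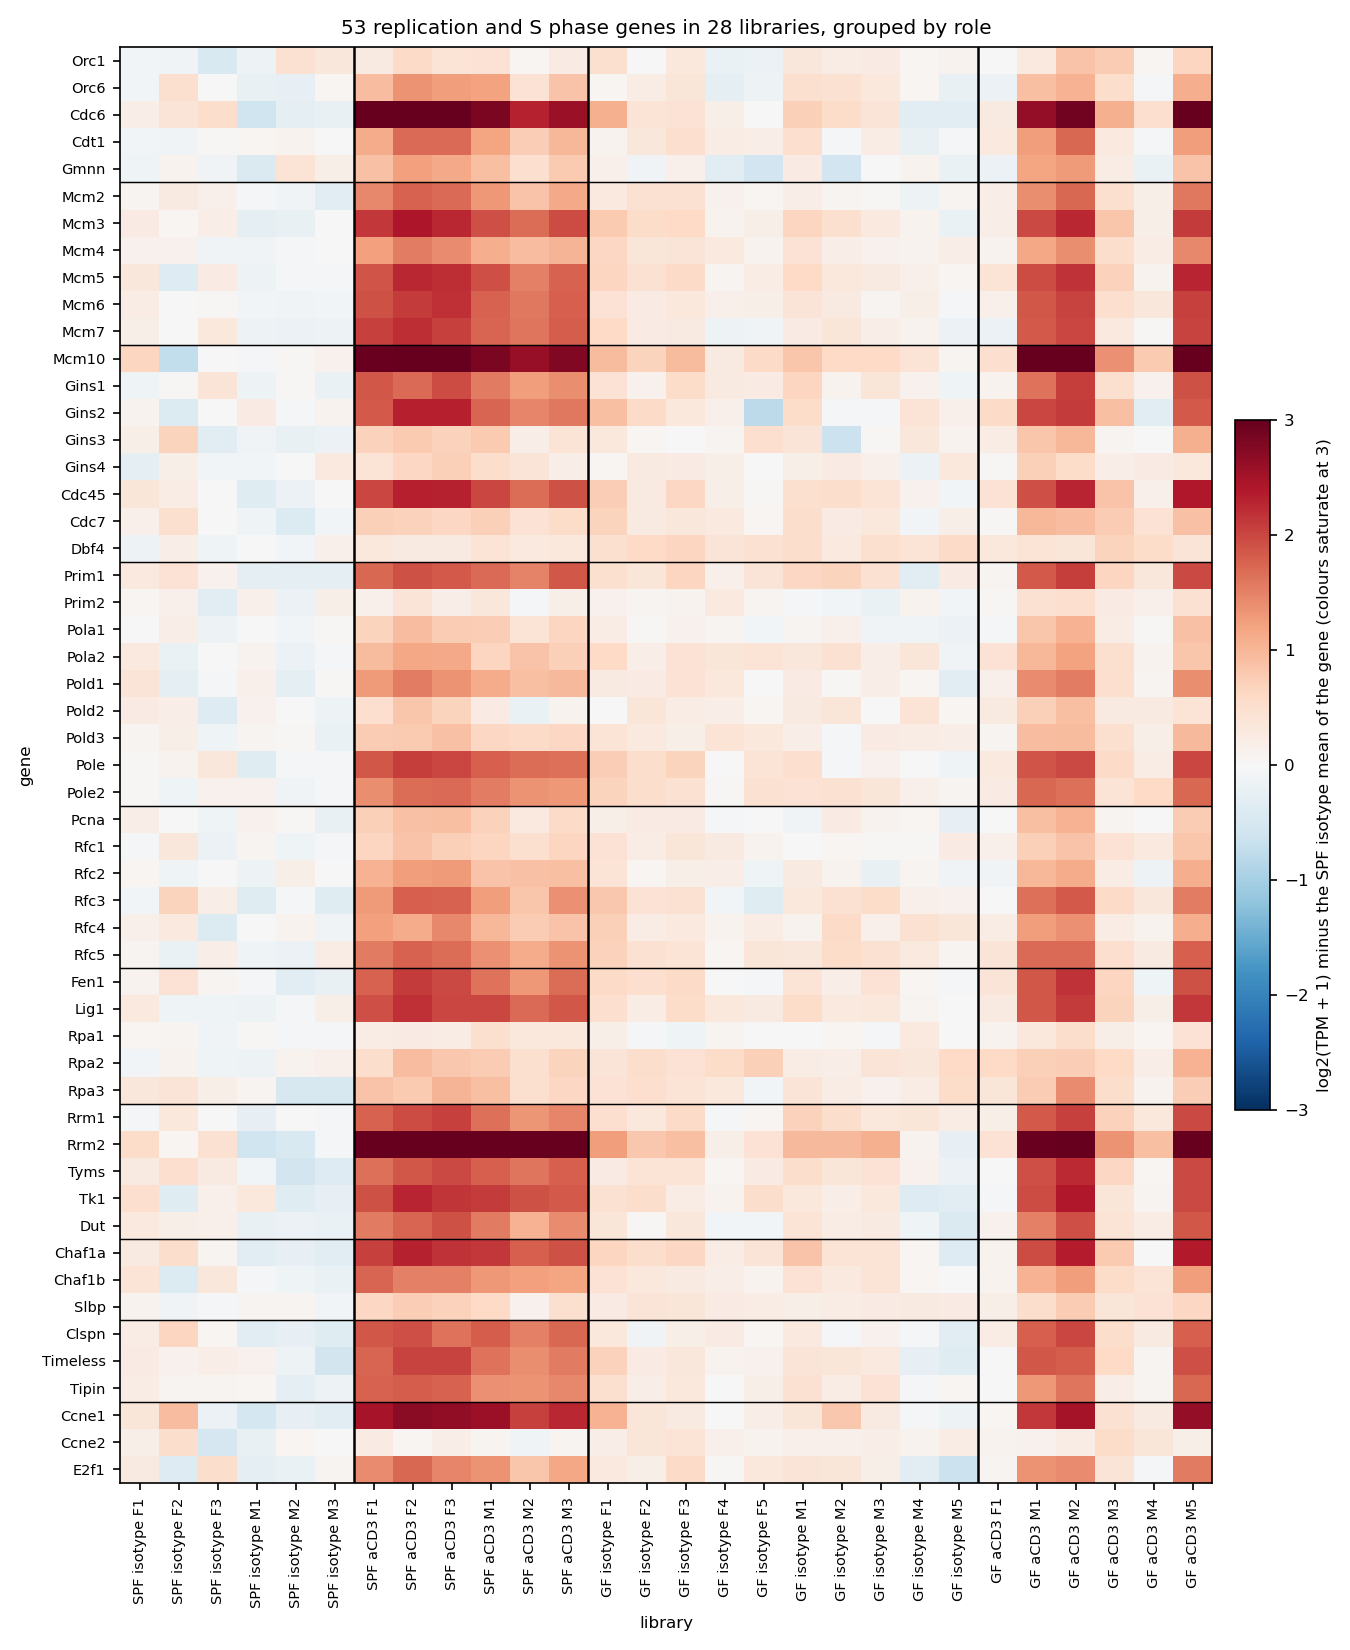
Heat map of log2(TPM + 1) minus the SPF isotype mean of each gene, for 53 genes in rows (lines separate the roles) and 28 libraries in columns (lines separate the groups). The 6 SPF aCD3 libraries are red in nearly every row, with Ccne2 and Prim2 palest and Rpa1, Dbf4, Orc1 and Pold2 pale, and the GF aCD3 group holds 3 red columns (M1, M2, M5) and 3 pale ones (F1, M3, M4).

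Among origin licensing factors, Cdc6 had the third highest change of the set. Its level was 1.53, 2.82 and 4.45 TPM (lowest, median, highest) in SPF isotype and 17.8, 27.6 and 34.8 TPM in SPF aCD3. The groups were far apart, with a 9.12-fold ratio of means and a log2 fold change of 2.84 ± 0.38 (SE, n = 6 and 6; limma adjusted p = 3.58e-06). Cdt1, its partner in loading the helicase, went from 28.9, 31.03 and 33.5 TPM to 51.98, 69.7 and 104 TPM, a log2 fold change of 1.24 ± 0.22 (limma adjusted p = 5.16e-05). Gmnn, which encodes geminin, the inhibitor of Cdt1, ran from 8.68 to 16.3 TPM in isotype and from 17.6 to 29.4 TPM with aCD3 (log2 fold change 0.90 ± 0.22, limma adjusted p = 0.00112). Both the loader and its inhibitor were thus higher in every aCD3 library. Orc6, a subunit of the origin recognition complex, rose by 1.00 ± 0.21, with overlap at 13.2 to 22.4 TPM against 21.7 to 41.7 TPM. Orc1, the subunit that recruits Cdc6, was at 2.53, 3.54 and 5.60 TPM in isotype and 4.03, 5.10 and 6.18 TPM with aCD3. Its log2 fold change of 0.33 ± 0.15 did not pass the test (limma adjusted p = 0.0602), and after median-of-ratios scaling it did (0.68, adjusted p = 0.000918).

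The MCM helicase is a ring of Mcm2 to Mcm7, and all 6 subunit genes rose with no overlap between groups. Their log2 fold changes ran from 1.21 for Mcm4 to 2.06 for Mcm3, with a median of 1.90. Mcm5 was at 11.6, 14.9 and 19.8 TPM in SPF isotype and 45.8, 60.5 and 77.4 TPM in SPF aCD3 (1.93 ± 0.28, limma adjusted p = 6.66e-06). For Mcm2 the values were 22.8, 29.1 and 35.2 TPM against 53.002, 76.4 and 102 TPM (1.36 ± 0.22, limma adjusted p = 1.53e-05). Subunits of a ring built in equal numbers had transcript ratios from 2.35 (Mcm4) to 4.32 (Mcm3).

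Several of these genes carry E2F-type words in their promoters. RefSeq promoters (build GRCm38.p6, 250 bases before to 50 after the start) were found for 43 of the 53 members, and where a gene has several the one nearest the start in the expression table was read. The words searched on both strands were TTTCCCGC, TTTCGCGC, TTTGCCGC and TTTGGCGC, with overlapping matches counted apart. They were present in 13 of the 43 member promoters (30.2%, 95% Wilson interval 18.6 to 45.1) and in 2.89% of the 18353 promoters of genes in the table. With the shorter words TTCCCGC or TTGGCGC the shares were 51.2% and 8.64%. Among promoters of other replication genes 8 of 27 held an 8-letter word (29.6%), a share near that of the members, and 44.4% held a shorter one. Of 26 promoters of G2/M genes 1 held an 8-letter word (3.85%). The CCAAT word stood in 53.5% of member promoters, 37.0% of those of other replication genes, 73.1% of G2/M promoters and 38.8% of all. A match is only a run of letters, and occupancy by any factor was not measured. The promoters below are shown for the 3 MCM genes and Rfc3 with 2 or more E2F-type words, for Orc1, which has a word and did not pass the test, and for Rrm2, which had the highest log2 fold change of TPM + 1 and has none in this window. Capitals mark the E2F-type words and CCAAT, on either strand, and each sequence runs 5′ to 3′ along the gene.
Mcm3 (chr1:20820263-20820562, minus strand): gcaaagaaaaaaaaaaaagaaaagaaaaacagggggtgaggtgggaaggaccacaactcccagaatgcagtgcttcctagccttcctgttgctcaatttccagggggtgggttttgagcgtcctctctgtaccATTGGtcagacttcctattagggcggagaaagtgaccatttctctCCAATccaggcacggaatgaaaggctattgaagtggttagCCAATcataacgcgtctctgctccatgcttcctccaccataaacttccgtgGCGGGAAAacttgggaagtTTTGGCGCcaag
Mcm5 (chr8:75109259-75109558, plus strand): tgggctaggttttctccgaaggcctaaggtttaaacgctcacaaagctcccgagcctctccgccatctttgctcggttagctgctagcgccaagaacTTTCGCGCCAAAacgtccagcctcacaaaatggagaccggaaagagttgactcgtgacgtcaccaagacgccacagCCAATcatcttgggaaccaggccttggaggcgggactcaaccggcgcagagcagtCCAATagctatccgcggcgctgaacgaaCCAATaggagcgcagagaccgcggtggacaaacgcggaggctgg
Mcm6 (chr1:128359656-128359955, minus strand): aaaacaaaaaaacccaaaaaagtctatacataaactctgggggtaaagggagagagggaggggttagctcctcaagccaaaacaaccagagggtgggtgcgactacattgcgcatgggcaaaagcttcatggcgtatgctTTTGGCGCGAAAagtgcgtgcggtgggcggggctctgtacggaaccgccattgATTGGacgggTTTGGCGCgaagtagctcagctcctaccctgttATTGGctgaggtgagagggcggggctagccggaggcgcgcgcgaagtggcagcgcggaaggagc
Rfc3 (chr5:151651159-151651458, minus strand): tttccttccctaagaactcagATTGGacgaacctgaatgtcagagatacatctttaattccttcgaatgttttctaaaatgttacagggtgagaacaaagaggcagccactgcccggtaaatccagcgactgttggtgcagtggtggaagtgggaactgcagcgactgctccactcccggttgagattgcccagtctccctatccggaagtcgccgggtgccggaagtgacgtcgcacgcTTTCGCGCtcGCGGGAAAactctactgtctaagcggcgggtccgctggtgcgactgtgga
Orc1 (chr4:108579204-108579503, plus strand): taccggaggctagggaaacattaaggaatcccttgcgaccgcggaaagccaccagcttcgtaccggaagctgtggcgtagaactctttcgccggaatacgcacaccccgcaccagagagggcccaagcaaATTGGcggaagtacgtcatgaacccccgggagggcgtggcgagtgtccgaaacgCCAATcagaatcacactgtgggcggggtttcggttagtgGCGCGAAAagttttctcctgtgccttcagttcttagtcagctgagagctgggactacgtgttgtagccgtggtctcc
Rrm2 (chr12:24708004-24708303, plus strand): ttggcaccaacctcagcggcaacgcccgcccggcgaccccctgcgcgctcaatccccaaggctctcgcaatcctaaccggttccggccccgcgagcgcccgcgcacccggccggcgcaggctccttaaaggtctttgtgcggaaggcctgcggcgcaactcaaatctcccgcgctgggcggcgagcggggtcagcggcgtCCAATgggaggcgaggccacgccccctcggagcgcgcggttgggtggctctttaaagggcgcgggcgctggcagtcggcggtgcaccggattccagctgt
In Mcm5 (TTTCGCGCCAAA) and Mcm6 (TTTGGCGCGAAA) an E2F-type word on each strand overlaps, starting 153 and 110 bases before the start. In Mcm3 the words lie 19 and 38 bases after it. Of the 42 promoters of members that rose, 12 held an 8-letter word.

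Helicase activation genes covered the widest span of changes. Mcm10, which helps the loaded helicase to separate and start, was at 0.29, 1.18 and 2.40 TPM in SPF isotype and 12.3, 15.04 and 19.2 TPM in SPF aCD3. That is a 12.4-fold ratio of means, the highest of the members, and a log2 fold change of 2.91 ± 0.36 (limma adjusted p = 1.71e-06). Cdc45 went from 1.24, 1.89 and 2.73 TPM to 8.36, 10.7 and 13.6 TPM (2.04 ± 0.29, limma adjusted p = 5.02e-06). The 4 GINS subunits form 1 complex, and their changes differed: Gins1 and Gins2 rose by 1.62 and 1.89, Gins3 and Gins4 by 0.59 and 0.48. Mean TPM went from 0.61 to 3.98 for Gins1 and from 2.37 to 11.7 for Gins2. The added 1 understates the change of Gins1 most, so the order of these subunits is not read. Gins2 was at 1.52, 2.45 and 2.96 TPM against 8.28, 10.6 and 15.9 TPM, whereas the Gins4 libraries overlapped, at 7.77 to 12.2 TPM against 11.3 to 16.8 TPM. The difference between subunits was not tested. Cdc7 is the kinase that fires origins and Dbf4 its activating subunit. Cdc7 rose by 0.62 ± 0.15 with overlap at 2.54 to 5.54 TPM against 5.28 to 6.71 TPM. Dbf4 rose by 0.32 ± 0.07 (limma adjusted p = 0.000659), from 12.5, 13.6 and 16.3 TPM to 17.2, 17.5 and 19.0 TPM. This was a small change with tight libraries and no overlap.

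Of the 9 primase and polymerase genes 8 rose. Prim1, the catalytic subunit of primase, was at 2.49, 3.14 and 4.80 TPM in SPF isotype and 11.1, 13.7 and 15.3 TPM in SPF aCD3 (log2 fold change 1.75 ± 0.27, limma adjusted p = 1.16e-05). Prim2, its large regulatory subunit, was at 1.10, 1.84 and 1.97 TPM against 1.59, 2.01 and 2.44 TPM (0.20 ± 0.11, limma adjusted p = 0.108), and passed after median-of-ratios scaling (0.49, adjusted p = 0.000933). The primase subunits thus differed in whether their groups overlapped. Pole2, the second subunit of leading-strand polymerase epsilon, ran from 1.27 to 1.72 TPM and from 5.16 to 7.11 TPM, and its catalytic partner Pole rose by 1.85 ± 0.26. Pola1, the catalytic subunit of polymerase alpha, ran from 1.39 to 2.05 TPM and from 2.53 to 4.11 TPM (0.70 ± 0.15, limma adjusted p = 0.000269). Pold1, that of lagging-strand polymerase delta, ran from 6.77 to 11.4 TPM and from 16.6 to 26.2 TPM (1.19 ± 0.21, limma adjusted p = 3.98e-05). Its accessory subunit Pold2 rose by 0.36 ± 0.15 only (limma adjusted p = 0.0352), with overlapping libraries.

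All 6 genes of the clamp and its loader rose without overlap, by 0.67 to 1.48. Pcna, the sliding clamp, was at 232, 274 and 315 TPM in SPF isotype and 334, 442 and 508 TPM in SPF aCD3 (0.67 ± 0.16, limma adjusted p = 0.000728). Among loader subunits Rfc3 went from 6.46, 8.22 and 14.2 TPM to 16.1, 23.0 and 32.2 TPM (1.38 ± 0.27). The large subunit Rfc1 went from 3.94, 4.43 and 6.08 TPM to 6.84, 7.80 and 9.14 TPM (0.67 ± 0.12).

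Okazaki fragment enzymes and the single-strand binding protein RPA also rose, to unequal extents. Fen1, the flap nuclease, was at 24.5, 32.1 and 42.7 TPM against 78.4, 106 and 137 TPM (1.74 ± 0.28, limma adjusted p = 1.58e-05). Lig1, the ligase that seals fragments, was at 6.61, 6.85 and 9.22 TPM against 26.1, 31.9 and 37.5 TPM (1.95 ± 0.26, limma adjusted p = 3.03e-06). RPA is a trimer, and Rpa1, its large subunit, rose least, from 19.3, 21.1 and 22.3 TPM to 24.6, 25.6 and 29.8 TPM (0.30 ± 0.08, limma adjusted p = 0.00206). The small subunits were Rpa2 (0.70 ± 0.11) and Rpa3 (0.78 ± 0.17, 16.5 to 30.9 TPM against 32.96 to 49.01 TPM). None of the 5 genes had overlapping libraries.

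Nucleotide supply held the member with the highest log2 fold change on the log2(TPM + 1) scale. Rrm2, the S phase subunit of ribonucleotide reductase, was at 15.9, 24.8 and 36.5 TPM in SPF isotype and 211, 263 and 285 TPM in SPF aCD3 (3.31 ± 0.40, limma adjusted p = 1.48e-06). Its partner Rrm1, the large subunit, rose by 1.71 ± 0.25. Tyms, thymidylate synthase, went from 3.31, 5.76 and 8.01 TPM to 18.4, 20.9 and 24.1 TPM (1.78 ± 0.30, limma adjusted p = 2.28e-05). Tk1, thymidine kinase, went from 3.32, 4.46 and 6.98 TPM to 19.1, 21.6 and 26.5 TPM (2.04 ± 0.32, limma adjusted p = 1.49e-05). Every aCD3 library exceeded every isotype library for these 4 genes and for Dut, the dUTPase (1.54 ± 0.26).

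Genes that package new DNA or protect the fork rose as well. Chaf1b, a subunit of chromatin assembly factor 1, was at 1.38, 2.00 and 3.25 TPM against 6.25, 7.44 and 9.57 TPM (1.41 ± 0.17, limma adjusted p = 1.46e-06). Slbp, which binds the stem-loop of histone mRNA, rose by 0.54 ± 0.09, from 53.8, 58.4 and 62.3 TPM to 63.5, 88.5 and 96.8 TPM. Clspn, or claspin, the adaptor of the replication checkpoint, went from 2.55, 3.33 and 6.24 TPM to 12.2, 14.7 and 16.7 TPM (1.75 ± 0.25, limma adjusted p = 6.54e-06). Timeless and Tipin, a pair of fork proteins, rose by 1.73 and 1.58.

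The cyclin E genes parted. Ccne1 was at 1.24, 1.79 and 5.14 TPM in SPF isotype and 12.4, 17.5 and 20.1 TPM in SPF aCD3 (2.45 ± 0.37 on the log2 scale, limma adjusted p = 9.32e-06). Ccne2, which encodes the other E-type cyclin that activates Cdk2, was at 9.20, 13.8 and 19.9 TPM against 12.6, 14.3 and 16.3 TPM. The Ccne2 groups overlapped almost completely, at 0.09 ± 0.11 (limma adjusted p = 0.493). Without SPF isotype F3, the library with the lowest Ccne2 and with 22.9% of its TPM in the ribosomal gene Rn45s (11.4% to 18.1% elsewhere), its value was -0.02. Without F2, the highest, it was 0.19, and after median-of-ratios scaling it was 0.48 with adjusted p = 0.000239. Ccne2 overlaps the gene Ints8 by 1852 bases, and use of strand in counting is not given in the sources used here. E2f1, an activating E2F factor, went from 2.23, 3.07 and 5.09 TPM to 6.57, 10.1 and 13.0 TPM (1.33 ± 0.25, limma adjusted p = 8.62e-05).

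**Figure D2:**
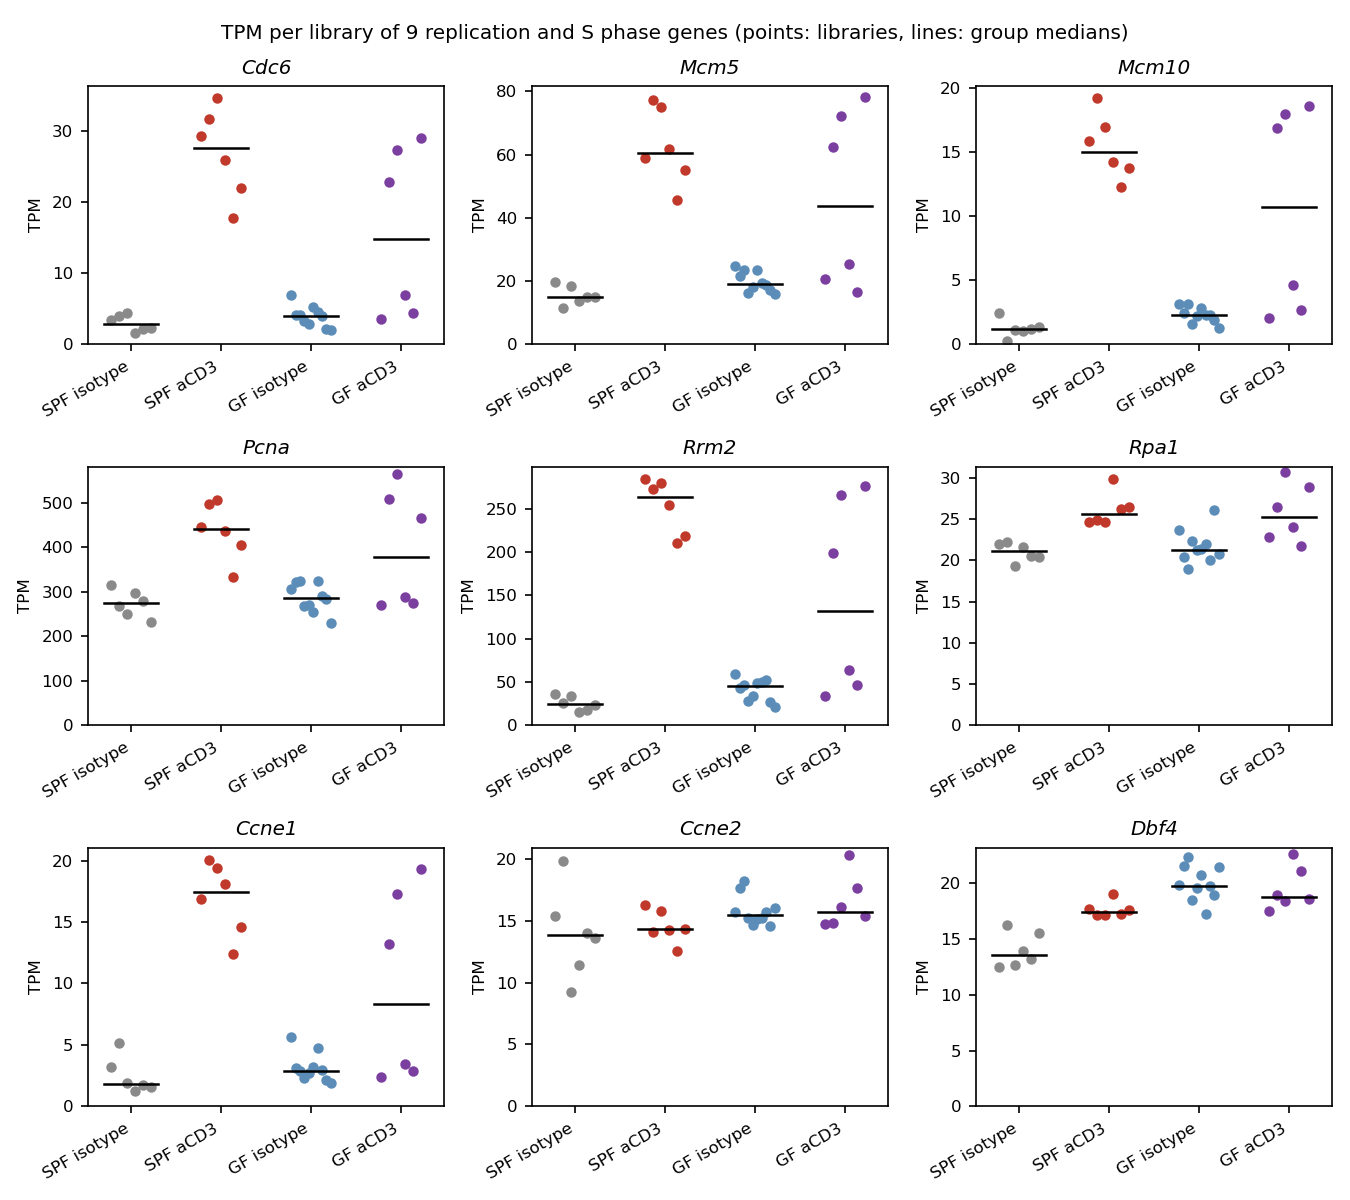
TPM of 9 of the genes in each library (points) with group medians (lines), linear axes from 0. The GF aCD3 points of Cdc6, Mcm5, Mcm10, Rrm2 and Ccne1 fall into 3 high and 3 low libraries, while Ccne2 and Dbf4 do not.

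Genes of neighbouring pathways in SPF mice both rose and fell, where 14.2% of all genes tested rose and 50.7% fell. Of 32 other replication genes 21 rose and 6 fell, from Esco2, the cohesin acetyltransferase (2.51 ± 0.40), to Orc4, another origin recognition subunit (-0.68 ± 0.12). Of 19 other nucleotide genes tested 12 rose and 1 fell, which was Rrm2b at -0.85. Rrm2b encodes the reductase subunit used outside S phase, so the alternative small subunits moved in opposite directions. That held after median-of-ratios scaling, at 3.72 for Rrm2 and -0.49 for Rrm2b. Among 23 Rb, E2F and G1 kinase genes 12 rose and 7 fell. E2f8, a repressor E2F, rose by 2.58, and Cdkn1b, the kinase inhibitor p27, fell by 1.13. Among 10 checkpoint genes 4 rose and 4 fell, with Chek1 at 1.78 and Atrip at -0.41. After median-of-ratios scaling 5 checkpoint genes rose and none fell, and Atrip was at -0.03 (adjusted p = 0.735). That scaling, under which 30.2% of all genes rose, gave 24 risen and 2 fallen other replication genes, 17 and 1 other nucleotide genes, and 15 and 5 Rb, E2F and G1 kinase genes, with Orc4 at -0.30 and Cdkn1b at -0.72. All 30 G2/M genes rose, with a median of 2.43 and a range from 1.44 for Ndc80 to 3.18 for Birc5.

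Markers of other cells moved with aCD3 too. Of 10 myeloid markers the summed TPM was 0.76 to 11.3 in SPF isotype and 57.6 to 149 in SPF aCD3. Cd68, which activated lymphocytes can also express, accounted for 54.4 to 106 TPM of the latter. The macrophage marker Adgre1 was at most at 0.063 TPM in all 28 libraries, and the neutrophil markers S100a8 and S100a9 were at 0 in every isotype library. With aCD3 they reached 65.5 and 25.6 TPM in 1 SPF library (F1) and 6.93 and 3.02 TPM in 1 GF library (M5). The 10 B and plasma cell markers summed to 97.3 to 278 TPM in SPF isotype and 3.42 to 11.7 TPM in SPF aCD3. The 2 CD8 markers summed to 5.68 to 13.5 and 9.75 to 23.8 TPM. The 7 stromal markers summed to 14.5 to 41.3 TPM in SPF isotype and 2.83 to 4.78 TPM in SPF aCD3, and the 7 erythroid markers to 3.55 to 10.5 and 0.72 to 1.64 TPM. The part of these cells in the members' change was not tested.

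In GF mice the effect of aCD3 was spread over unlike libraries. Of the 53 members 23 rose and none fell, with a median log2 fold change of 0.69, where 2.46% of all genes rose and 4.61% fell. The lowest adjusted p among the members was 0.0481, so the 23 calls stood close to the threshold. No member had every GF aCD3 library above every GF isotype library. Leaving out any single library other than GF aCD3 F1, M3 or M4 left 0 calls (limma), among the members and among all genes, with 42 to 49 members at an unadjusted p under 0.05. Without F1, M3 or M4 the counts were 48, 45 and 48 members, beside 8.18%, 6.66% and 7.62% of all genes. At an unadjusted p under 0.05 there were 49 members, beside 35.7% of all genes in either direction. Voom on recovered reads called 27 members and 3.76% of all genes higher, and median-of-ratios scaling 38 members and 5.62%. The main fit shares 1 estimate of the spread over all 4 groups, and a fit of the compared groups only called 0 members. The count was also 0 with pseudocount 0.1 and without the filter, and it ran from 0 to 48 over all alternatives. It thus depended strongly on the model.

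Rrm2 shows the pattern. In the 10 GF isotype libraries it ran from 20.6 to 59.8 TPM with a median of 44.9. In GF aCD3 it was at 33.5 TPM in F1, 199 in M1, 266 in M2, 64.2 in M3, 46.6 in M4 and 277 TPM in M5. M1, M2 and M5 lay near or inside the SPF aCD3 range of 211 to 285 TPM, F1 and M4 inside the isotype range, and M3 just above it. The fitted log2 fold change was 1.45 ± 0.37 (n = 6 and 10; limma adjusted p = 0.0481). Its SE and p rest on a spread shared by all 4 groups, while the SD was 113 TPM in GF aCD3 and 13.0 TPM in GF isotype. Cdc6 was at 3.57, 22.9, 27.4, 6.93, 4.43 and 29.1 TPM in F1, M1, M2, M3, M4 and M5, beside 2.07 to 6.94 TPM in GF isotype (1.46 ± 0.35, limma adjusted p = 0.0481). Mcm5 was at 20.7, 62.5, 72.3, 25.3, 16.6 and 78.4 TPM in the same order, beside 16.0 to 24.7 TPM. Ccne1 was at 2.36, 13.2, 17.3, 3.43, 2.88 and 19.3 TPM beside 1.90 to 5.67 TPM, and did not pass the test (1.06 ± 0.34, limma adjusted p = 0.0533; 0.0469 after median-of-ratios scaling). These genes put the same 3 libraries high.

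Counted over the members, 50 of 53 exceeded every GF isotype library in M1, 51 in M2 and 50 in M5. The counts were 0 in F1, 1 in M4 and 21 in M3. The shares of all genes above every isotype library were 13.8% in M1, 14.3% in M2, 12.2% in M5, 6.44% in F1, 7.6% in M4 and 19.3% in M3. M3 also had the highest sum of 10 pancreatic acinar markers, 751 TPM, and its Mki67, a marker of cycling cells, was at 160 TPM beside 32.7 to 118 TPM in GF isotype. Myeloid markers summed to 45.4 to 69.1 TPM in M1, M2 and M5 and to 8.90 to 16.5 TPM in F1, M3 and M4, and stromal markers to 3.37 to 5.02 and 9.49 to 11.3 TPM. B and plasma cell markers summed to 8.87 to 10.4 TPM in the former and 21.7 to 103 TPM in the latter, epithelial markers to 6.64 to 8.12 and 12.4 to 38.8 TPM, and CD8 markers to 9.59 to 13.01 and 3.47 to 7.56 TPM. The part of these in the members' values was not tested. The summed member TPM was 1047 in F1, 2485 in M1, 2927 in M2, 1294 in M3, 1073 in M4 and 2706 in M5, beside 944 to 1278 in GF isotype. Within the run of sample numbers 25 to 33 (M1, M2 and M3) the median change was 0.87, and within 48 to 54 (F1, M4 and M5) it was 0.54. Neither run gave a call, and at an unadjusted p under 0.05 there were 45 and 0 members, beside 14.1% and 2.94% of all genes in either direction.

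**Figure D3:**
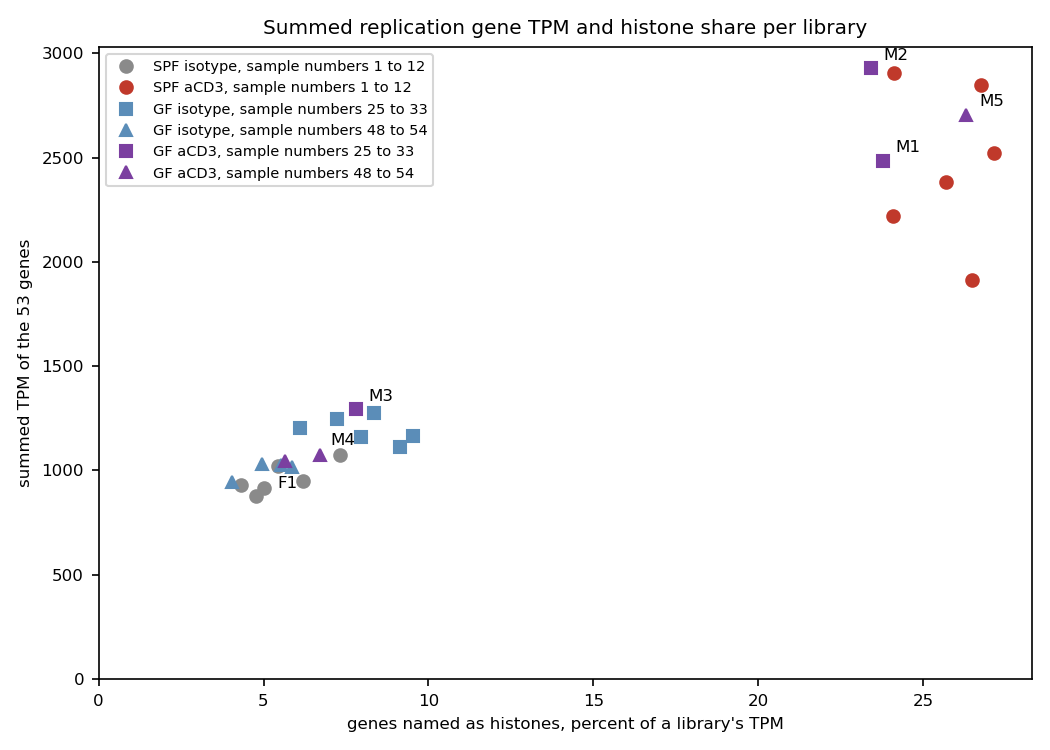
Summed TPM of the 53 genes (y) against the percent of TPM in genes named as histones (x), 1 point per library, coloured by group and shaped by run of sample numbers. GF aCD3 M1, M2 and M5 lie with the 6 SPF aCD3 libraries at 1914 TPM or above, and F1, M3 and M4 lie with the isotype libraries at 1294 TPM or below.

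By role, GF calls were 5 of 6 for the MCM helicase (Mcm7 missed, 0.84, limma adjusted p = 0.0537), 1 of 5 for licensing (Cdc6), 3 of 8 for helicase activation, 4 of 9 for primase and polymerases, 2 of 6 for clamp and loader, 2 of 5 for Okazaki and RPA genes, 3 of 5 for nucleotide supply, 1 of 3 for chromatin assembly, 2 of 3 for fork protection and 0 of 3 for G1/S control. Median-of-ratios scaling kept the 23 and added Cdt1, Gmnn, Gins1, Cdc7, Prim1, Prim2, Pola2, Pold2, Pold3, Rpa1, Tyms, Tk1, Chaf1a, Slbp and Ccne1, while Mcm7 still missed (adjusted p = 0.0507). Clspn had a log2 fold change of 1.06 ± 0.23, from 2.71 to 4.73 TPM in isotype to 4.36, 14.9, 17.4, 5.62, 4.54 and 14.99 TPM in F1, M1, M2, M3, M4 and M5. Dbf4 had the lowest value, -0.04 ± 0.07 (limma adjusted p = 0.679). It was at 17.3 to 22.3 TPM in GF isotype and at 17.5, 18.9, 18.4, 22.7, 21.1 and 18.6 TPM in GF aCD3. The highest Dbf4 library was M3. Ccne2 was at 14.6 to 18.2 TPM and at 14.7, 14.8, 16.1, 20.3, 17.6 and 15.4 TPM, again highest in M3 (0.08 ± 0.11, limma adjusted p = 0.617). As a description with no test, the fit without the 3 libraries with Lag3 under 100 TPM gave a median of 1.41 over the members against GF isotype, with Rrm2 at 2.79 and Dbf4 at -0.09.

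**Figure D4:**
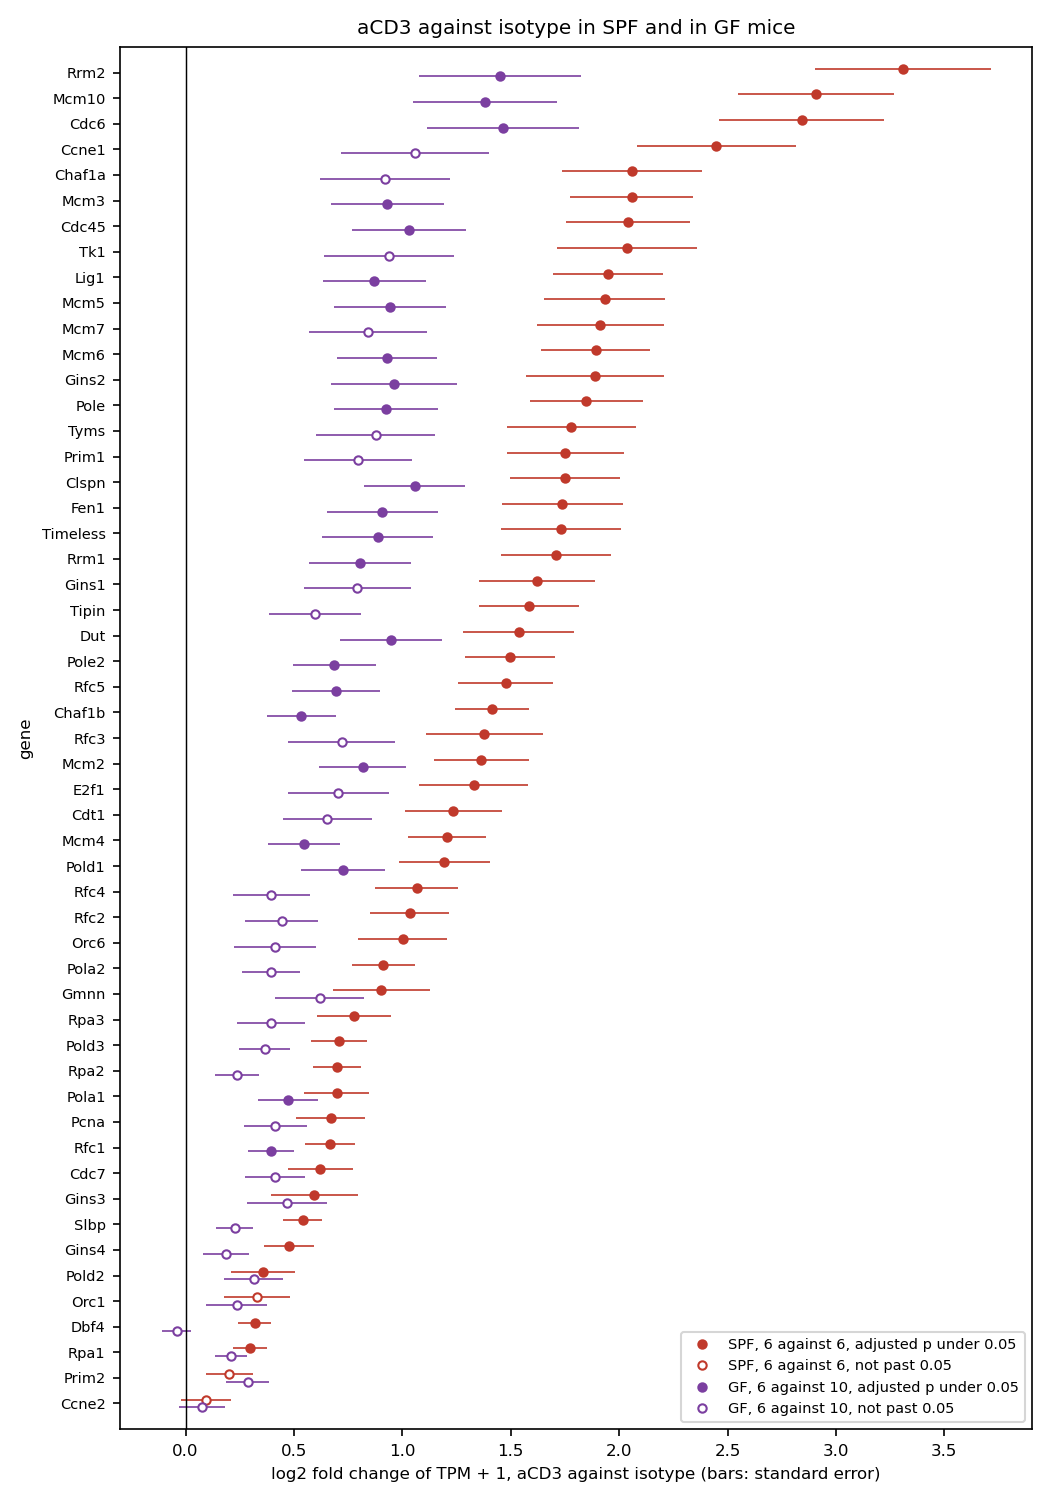
Log2 fold change of TPM + 1 (x, bars are standard errors) for aCD3 against isotype in SPF (red) and GF (purple) mice, 53 genes ordered by the SPF value (filled points have adjusted p under 0.05). SPF values run from 0.09 for Ccne2 to 3.31 for Rrm2 and GF values from -0.04 for Dbf4 to 1.46 for Cdc6.

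The difference between the aCD3 effects in GF and SPF mice passed the test for 2 members, both lower in GF: Chaf1b (-0.88 ± 0.24, limma adjusted p = 0.0412) and Dbf4 (-0.36 ± 0.10, limma adjusted p = 0.048). None was higher. Of all genes 1.04% were lower and 2.44% higher. The median over members was -0.66, and 32 had an unadjusted p under 0.05, beside 32.1% of all genes in either direction. Chaf1b was at 2.14 to 3.30 TPM in GF isotype and at 2.42, 5.55, 6.54, 3.65, 3.22 and 6.55 TPM in GF aCD3 F1, M1, M2, M3, M4 and M5, beside 6.25 to 9.57 TPM in SPF aCD3. The count was 8 after median-of-ratios scaling (Mcm10, Lig1, Rpa2, Rrm2, Slbp and Tipin were added) and 14 with voom on recovered reads, where 6.04% and 6.59% of all genes were lower. It went to 24, 30 and 29 without GF aCD3 M1, M2 or M5, where 3.92%, 5% and 5.26% of all genes were lower, and to 7 without SPF isotype F3, where 2.37% were. It was 0 without F1, M4 or any single SPF aCD3 library and 0 to 2 without any other. In the 15 limma fits with a count of 0, 0.107% to 0.823% of all genes were lower and 12 to 35 members had an unadjusted p under 0.05. Without the 3 libraries of low Lag3 the median was -0.02, with Dbf4 at -0.41 and Chaf1b at -0.40 (a description with no test).

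Setting the aCD3 groups side by side, 14 members were lower in GF than in SPF mice and none higher, where 4.46% of all genes were lower and 48.9% higher. The 14 were Cdc6, Mcm3, Mcm6, Mcm7, Mcm10, Pole, Rfc2, Lig1, Rrm2, Tk1, Chaf1b, Clspn, Tipin and Ccne1, with log2 fold changes from -0.50 (Rfc2) to -1.22 (Rrm2). The groups of all 14 overlapped. The median over members was -0.46, and it turned to 0.26 without F1, M3 and M4, with 52 of 53 members above 0 (all genes 0.34 and 0.16; a description with no test). The lowest SPF aCD3 value was reached by 50 members in M1, 53 in M2 and 53 in M5, against 7, 11 and 7 in F1, M3 and M4. Of all genes 93.1%, 94.4% and 92.5% reached it in M1, M2 and M5, and 87%, 89.2% and 87.5% in F1, M3 and M4, so the members' shares in M1, M2 and M5 were near those of all genes. The count was 45 after median-of-ratios scaling, where 16.7% of all genes were lower; Orc1, Gins3, Cdc7, Prim2, Pold2, Rfc3, Rpa3 and Ccne2 missed. It was 1 without GF aCD3 F1, 5 without M3 and 3 without M4, beside 2.25%, 3.06% and 2.86% of all genes. Without M1, M2 or M5 it was 29, 34 and 31, beside 5.75%, 6.06% and 5.84%. This comparison shares its libraries with the ones above.

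Without aCD3, few members differed between GF and SPF cells in the main fit, and the count depended on the model. In GF cells 3 of 53 were higher and none lower, a share near the background of 6.42% of all genes higher and 0.755% lower. A fit of the compared groups only called 12 members higher, and no share of all genes is given for that fit. Dbf4 was at 12.5, 13.6 and 16.3 TPM in SPF isotype and 17.3, 19.8 and 22.3 TPM in GF isotype (0.49 ± 0.07, n = 10 and 6; limma adjusted p = 0.000115). Rpa2 was at 14.7 to 18.3 TPM and 18.9 to 27.5 TPM (0.44 ± 0.10, limma adjusted p = 0.0096). Slbp was at 53.8 to 62.3 TPM and 65.8 to 76.2 TPM (0.26 ± 0.08, limma adjusted p = 0.0463). In these 3 genes every GF library was above every SPF library, which held for 2.39% of all genes. After median-of-ratios scaling only Dbf4 of the members passed (adjusted p = 0.00998), with Rpa2 at adjusted p = 0.349 and Slbp at 0.792, and 0.517% of all genes were higher. On the TPM scale the Dbf4 range of SPF aCD3 cells, 17.2 to 19.0 TPM, overlapped the low end of the GF isotype range. The median over members was 0.25, beside 0.15 over all genes, and run of sample numbers and housing cannot be told apart. Summed B and plasma cell markers had a median of 182 TPM in the SPF isotype libraries and 35.3 TPM in the GF ones, and stromal markers ranged from 14.5 to 41.3 and from 7.54 to 13.6 TPM. Erythroid markers ranged from 3.55 to 10.5 and from 1.27 to 3.30 TPM. Their part in these differences was not tested.

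Levels also varied within groups. In GF isotype the summed member TPM was 1114 to 1278 in the 6 libraries numbered 25 to 30 and 944 to 1030 in the 4 numbered 48 to 51, and 48 of 53 members had a positive fitted difference. None passed (limma, 2 at an unadjusted p under 0.05, where 0.616% of all genes were called higher). In 16 members every library of the first run was higher, which held for 4.53% of all genes. In SPF aCD3 the 3 female libraries summed to 2520 to 2903 TPM and the 3 male ones to 1914 to 2381 TPM. In 29 members every female library was above every male one, beside 13.4% of all genes, and in SPF isotype the same held for 18 members, beside 3.6%. No member passed a test of the sexes in either group (limma, 2 in SPF aCD3 and 3 in SPF isotype at an unadjusted p under 0.05), where 0.0985% and 0.041% of all genes were higher in females. Cdc6 in SPF aCD3 was at 29.3, 31.8 and 34.8 TPM in F1, F2 and F3 and at 25.9, 17.8 and 21.97 TPM in M1, M2 and M3.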

How the data were processed

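The authors deposited TPM per gene for RNA sequencing of sorted CD4+ T cells; per the file headers these values came from HOMER's analyzeRepeats.pl with transcripts of each gene condensed, on RefSeq genes of build mm10. The aligner's version and settings and the use of strand are not given in the sources used here. The design text names a total RNA kit and another label polyA RNA. Another 26 value columns match no sample used here and were left out.

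All low TPM values checked (over 0.05 TPM, under 20 reads, genes under 20 kb) lay within 0.02 reads plus the rounding of TPM, at most 0.044 reads, of a whole number in each library, and these recovered reads served for depth and for the voom alternative. The main fit was limma 3.58.1 (R 4.3.3) on log2(TPM + 1), with pseudocount 1, group means and a sex term over all 28 libraries, for 12182 genes with at least 1 TPM in 6 libraries. All 53 members passed that filter. Fold changes on this scale understate those of low genes. In each of 5 comparisons the Benjamini-Hochberg adjustment ran over all genes tested, with a threshold of 0.05. The fit was tested on simulated data. No 2 libraries held identical values. Alternatives changed the pseudocount, filter, scaling, model, run of sample numbers and libraries left out; 4 were added after seeing the data. Members, lists and named genes (lead genes of each role, extremes of each comparison and members that missed the test) were chosen with earlier results of these data known. Tables used pandas and SciPy.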

Additional observations from a re-analysis of the deposited data

Results flagged for a closer look

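Among 124 sets of library values (31 named genes in 4 groups) 2 held a library far from the others of its group, where chance flags about 1 in 20. Both were SPF aCD3 M1: Rpa1 was at 29.8 TPM there and at 24.6 to 26.4 TPM in the other 5 libraries, and Dbf4 at 19.0 TPM beside 17.2 to 17.7 TPM. The aCD3 effect differed between GF and SPF mice by -0.36 for Dbf4 and by -0.88 for Chaf1b on the log2 scale in the test of the difference itself. Both calls stood close to the threshold. In 15 of the 28 fits with 1 library left out no member was called lower, beside 0.107% to 0.823% of all genes.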

How the results depend on the processing

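The count of members that rose with aCD3 in SPF mice (50) stayed within 1.5 times under all alternatives and ran from 49 to 51 with 1 library left out. None fell in SPF or GF mice under any alternative. Shares of all genes are given in the Results for only some of the fits below. Where no share is given, a count cannot be set against the background and describes the processing only. The GF count (23) was 0 with pseudocount 0.1, without the filter, in a fit of the compared groups only, and within either run, 5 at a log2 fold change of at least 1, 38 with median of ratios, 43 without Rn45s and histone genes, 40 without the sex term and 41 with run as a covariate, and 0 to 48 with 1 library left out. Members higher in GF than SPF isotype (3) were 1 with median of ratios and with voom in either scaling, 12 in the fit of the compared groups only, 0 at a log2 fold change of at least 1 and 2 to 3 with 1 library left out. Members lower in GF than SPF aCD3 (14) were 45 with median of ratios, 44 and 47 with voom, 1 in the fit of the compared groups only, 3 at a log2 fold change of at least 1, and 1 to 34 with 1 library left out. Members with a lower effect in GF (2) were 4 with pseudocount 0.1, 1 with pseudocount 5, 0 without the filter, 8 with median of ratios, 4 without Rn45s and histone genes, 14 and 15 with voom, 0 at a log2 fold change of at least 1, and 0 to 30 with 1 library left out. The cause was not tested. With the replicate block the counts were 50 in SPF, 0 in GF, 2 for the isotype groups, 2 lower for the aCD3 groups and 0 for the difference. Same-named libraries of different groups did not deviate together (32 pairs, median r 0.0117, 5 over 0.1). That gives no sign that the names pair samples, but it cannot exclude pairing, because the GF aCD3 deviations mostly follow its split into unlike libraries. Of single genes, 1 reversed: Ccne2 in SPF was at -0.023 without SPF isotype F3, and at up to 0.19 with another library left out. The lowest members had 9 reads (Mcm10) to 16 reads (Gins1) in their lowest library, which limits their precision.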
